A study of Bos taurus with 179 samples.

Results

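Single growing oocytes of cattle (Bos taurus) between 80 and 99 μm in diameter were compared in 2 neighbouring size groups, 80-89 μm and 90-99 μm. The members were the oocytes of these groups that the sample list of the study retains, 24 of 80-89 μm and 21 of 90-99 μm, out of 165 retained oocytes in 8 size groups. All differences are given as 90-99 μm minus 80-89 μm, so that a positive value means more in the larger oocytes. The oocytes came from ovaries collected at an abattoir, were freed from follicles by slicing the ovarian cortex, stripped of surrounding cells and measured one by one, and no group was treated. The labels name no animal, so oocytes of 1 animal may be present in both groups. Every p-value measures the spread between oocytes or between sums of oocytes. In the main fit this spread was estimated over the 16 sums of all 8 size groups, not from these 2 groups alone. Libraries were made in 2 replicates, with 150 bp reads in replicate 1 (16 and 12 oocytes) and 75 bp reads in replicate 2 (8 and 9 oocytes), so that read length and library batch cannot be told apart. The measured diameters ran from 80.5 to 89.1 μm (median 85.1) in the smaller group and from 90.3 to 99.5 μm (median 95.6) in the larger group.

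During growth a mammalian oocyte, arrested in the first meiotic prophase, transcribes and stores the messenger RNA, proteins and organelles that carry it through meiotic maturation and the first embryonic cleavages. Stored transcripts are kept with short poly(A) tails by proteins such as CPEB1 and are shortened or cleared by the CCR4-NOT deadenylase, and mitochondria multiply in the same period. Transcription is later silenced as the oocyte completes growth, which leaves the mid-growth oocyte as a cell that is both transcribing and storing. Only polyadenylated RNA was captured and amplified here, with no molecular identifiers, so a transcript with a shorter tail and a less abundant transcript cannot be told apart.

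An oocyte had between 294744 and 5434763 counts on genes (median 1862627) at 80-89 μm and between 277126 and 4249894 (median 1150073) at 90-99 μm. The oocyte markers BMP15 and BTG4 had counts in all 45 oocytes. The 6 granulosa and theca cell markers that could be paired with a gene ID, of 16 listed, together took at most 0.0012% of the counts of an oocyte at 80-89 μm (mean 0.00035%) and at most 0.0008% at 90-99 μm (mean 7.62e-05%). The 8 paired markers of stroma, vessels and blood, of 14 listed, took at most 0.0088% and 0.0052%, and COL1A1 and CD34 had 0 counts in all 45 oocytes. CYP11A1, CYP17A1, CDH5 and COL3A1 had 0 counts in the 21 larger oocytes. They were also near 0 in the 24 smaller ones, with 6 counts of CYP11A1, 2 of CDH5 and 14 of COL3A1. The summed depth was 56302825 counts for the smaller and 30993133 for the larger oocytes. An oocyte of 98.51 μm in replicate 1 and an oocyte of 88.46 μm in replicate 2 stood apart from the rest, with median Spearman correlations of 0.667 and 0.666 to the other oocytes of their replicate, and the counts of called genes, the measures per oocyte other than this correlation, the spread and the principal component are given without them as well.

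Between 80-89 μm and 90-99 μm no gene passed the test. Of 14087 genes, 0 were differentially expressed (0% called, edgeR quasi-likelihood test on counts summed per size group and replicate, Benjamini-Hochberg adjusted p under 0.05, smallest adjusted p of 1). The median gene had a log2 fold change of -0.02, and the middle 50% of genes lay between -0.36 and 0.25. At an unadjusted p under 0.05 there were 149 genes higher (1.06%) and 322 lower (2.29%) at 90-99 μm, together 3.34% of those tested. A gene had the same direction in both replicates in 25.8% of cases on the higher side and 29% on the lower side. Other fits of the same contrast also gave 0 differentially expressed genes (DEGs), with 206 genes higher (1.46%) and 386 lower (2.74%) at an unadjusted p under 0.05 with DESeq2. With single oocytes as units the shares at that p were 3.03% higher and 4.86% lower of 9035 genes (edgeR), and 2.27% and 5.32% of 8800 genes after ComBat-seq correction for replicate. A fit of the 4 sums of the 2 groups alone, which leaves 1 residual degree of freedom, called 24 genes higher and 31 lower (0.428% of 12863), and the fold changes it gave to the 10 called genes with a symbol ran from -2.62 for TSPAN6 to 0.65 for AKR1B1. In simulated data with 200 genes changed, the 16-sum fit recovered 11 of those changed 2-fold, 119 of those changed 4-fold and 159 of those changed 8-fold, so a change of 2-fold in 1 gene was mostly not detectable with these sums. With single oocytes as units, 176 of 200 genes changed 2.83-fold were recovered (9035 genes). Without the 2 oocytes that stood apart the sums gave 0 DEGs, with 142 genes higher and 321 lower at an unadjusted p under 0.05.

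How closely a change was bounded depended on the abundance of the gene. The 95% interval of the fold change lay within a 2-fold change in either direction for 5003 genes (35.5%). This held for 1900 of the 2421 genes above a mean of 100 CPM (counts scaled to a common library size) in the 4 sums, for 3004 of 5426 between 10 and 100 CPM, for 95 of 4033 between 1 and 10 CPM, and for 4 of 2207 below 1 CPM. With single oocytes as units it held for 85.2% of the 9035 genes tested. The excess of lower over higher genes was at the low end. Below 1 CPM 16 genes were higher and 101 lower at an unadjusted p under 0.05, and between 1 and 10 CPM 26 were higher and 143 lower. Between 10 and 100 CPM the numbers were 73 and 68, and above 100 CPM 34 and 10. The summed depth moved with this, at 36591973 counts for 80-89 μm against 12455579 for 90-99 μm in replicate 1, and 19710852 against 18537554 in replicate 2. With every oocyte thinned to 250000 counts the numbers were 106 higher (0.981%) and 182 lower (1.68%) of 10805 genes. The part of depth in the excess of lower genes was not tested further.

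**Figure D1:**
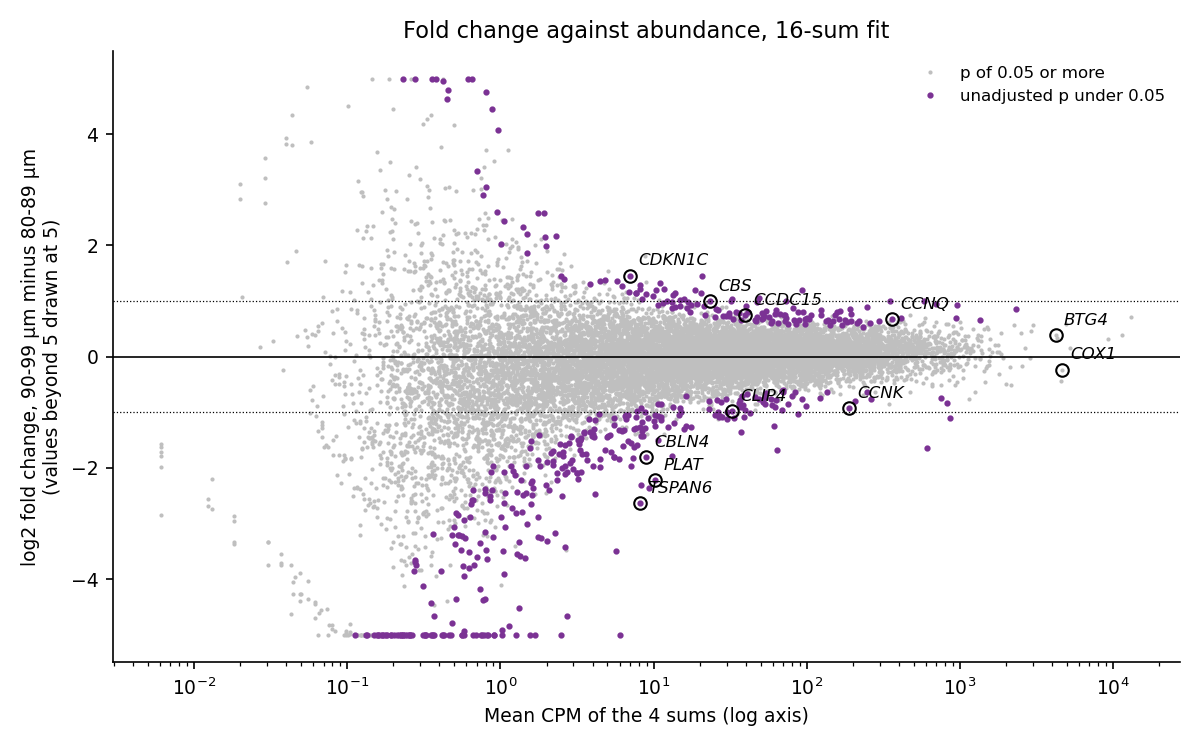
Fold change (log2, 90-99 μm minus 80-89 μm) of the 14087 genes against the mean CPM of the 4 sums on a log axis, with the genes at an unadjusted p under 0.05 in purple and dotted lines at a 2-fold change. The purple points below 10 CPM are mostly lower in the larger oocytes, and those above 100 CPM are mostly higher.

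In the same fit, the step from 70-79 to 80-89 μm gave 0 DEGs, with 2.20% of genes higher and 2.55% lower at an unadjusted p under 0.05. The step from 90-99 to 100-109 μm gave 0 DEGs, with 6.37% higher and 3.75% lower at that p, and the step from 100-109 to 110-119 μm gave 524 DEGs. Each step shares a group with the next, and the steps were not tested against each other.

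Of the genes with a symbol and the same direction in both replicates, those with the smallest p were mostly of low abundance. TSPAN6, a tetraspanin of the cell membrane, had between 0 and 52.7 CPM (median 3.82) in the 80-89 μm oocytes and between 0 and 12.8 CPM (median 1.54) in the 90-99 μm oocytes. It had counts in 18 of 24 and in 13 of 21 oocytes, the groups overlapped over the whole lower range, and only oocytes of 80-89 μm lay above 12.8 CPM (log2 fold change -2.63, SE 0.65, unadjusted p = 0.000674, edgeR quasi-likelihood test, adjusted p = 1). Its log2 ratio was -1.95 in replicate 1 and -2.79 in replicate 2. CBLN4, a secreted protein of the cerebellin family, had between 0.743 and 42.9 CPM (median 6.98) in the 80-89 μm oocytes and between 0 and 14 CPM (median 2.5) in the 90-99 μm oocytes. It had counts in all 24 smaller oocytes and in 14 of 21 larger ones, and 7 of the larger oocytes lay below the lowest of the smaller (log2 fold change -1.81, SE 0.51, unadjusted p = 0.00204). The same direction was seen with a log2 ratio of -1.09 in replicate 1 and -2.17 in replicate 2. CCNK, the cyclin that partners transcription-elongation kinases, had between 35.9 and 663 CPM (median 173) in the 80-89 μm oocytes and between 40.5 and 292 CPM (median 121.5) in the 90-99 μm oocytes. Of the 21 larger oocytes, 17 lay below the median of the smaller, although the ranges overlapped (log2 fold change -0.93, SE 0.30, unadjusted p = 0.0054).

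PLAT, tissue-type plasminogen activator, had between 0 and 358.9 CPM (median 3.23) in the 80-89 μm oocytes and between 0 and 20.1 CPM (median 1.62) in the 90-99 μm oocytes. A single smaller oocyte held 80.1% of the counts of its group, so its log2 fold change of -2.22 (SE 0.72) rests largely on that oocyte. The summed level of the group was 23.1 CPM with it and 4.84 CPM without it, against 2.94 CPM at 90-99 μm. CLIP4, of the family of microtubule-binding CLIP proteins, had between 0 and 91.3 CPM (median 31.1) in the 80-89 μm oocytes and between 0 and 89.9 CPM (median 18.5) in the 90-99 μm oocytes, with 17 of 21 larger oocytes below the median of the smaller (log2 fold change -0.99, SE 0.32, unadjusted p = 0.00551). VSNL1, a neuronal calcium sensor, had a median of 8.8 CPM at 80-89 μm and 1.8 CPM at 90-99 μm, and 18 of 21 larger oocytes lay below the former (log2 fold change -1.61, SE 0.52, unadjusted p = 0.00621). HPGD, an enzyme that inactivates prostaglandins, had counts in 21 of 24 and 12 of 21 oocytes (log2 fold change -2.31, SE 0.81, unadjusted p = 0.0101). DSG2, a desmosomal cadherin, had counts in 21 of 24 and 11 of 21 (log2 fold change -1.62, SE 0.59, unadjusted p = 0.0129), and RTL9, derived from a retrotransposon gag gene, in 22 of 24 and 17 of 21 (log2 fold change -1.83, SE 0.67, unadjusted p = 0.0134). At 250000 counts per oocyte the share of oocytes with counts was 62.5% and 42.9% for HPGD, 62.5% and 38.1% for DSG2 and 79.2% and 42.9% for RTL9, lower at 90-99 μm for each. GSTO2, an omega-class glutathione transferase, had 40 counts over 6 of the smaller oocytes and 0 over the larger, and MLANA, a melanocyte antigen, had 34 over 8 and 0. A single oocyte held 40% of the GSTO2 counts and 50% of the MLANA counts, and the summed level of MLANA was 0.604 CPM with that oocyte and 0.331 CPM without it. Against a floor of 3 counts over the group of larger oocytes the ratios were 7.34 for GSTO2 and 6.24 for MLANA. From the counting error of both groups alone, the lower exact 95% limits of the ratios were 5.70 and 4.80. Such limits leave out the spread between oocytes and do not bound the difference between the groups. Without the oocyte with most counts these limits were 3.5 and 2.49. C29H11orf86, an uncharacterised gene, had 71 counts against 1, a ratio of 39.1 with a 95% counting interval of 6.79 to 1565.2, and 66.2% of the 71 were in 1 oocyte, without which the ratio was 14.5.

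On the other side, CDKN1C, an inhibitor of cyclin-dependent kinases, had between 0 and 18.9 CPM (median 4.4) in the 80-89 μm oocytes and between 1.03 and 47.9 CPM (median 6.47) in the 90-99 μm oocytes. It had counts in 20 of 24 and in 21 of 21 oocytes and the groups overlapped (log2 fold change 1.45, SE 0.53, unadjusted p = 0.0133), and its log2 ratio was 0.55 in replicate 1 and 2.15 in replicate 2. CCDC15, a coiled-coil protein, had between 15.4 and 72 CPM (median 27) in the 80-89 μm oocytes and between 25 and 73.8 CPM (median 48) in the 90-99 μm oocytes, and 19 of 21 larger oocytes lay above the median of the smaller (log2 fold change 0.75, SE 0.29, unadjusted p = 0.0179). AUNIP, a partner of Aurora A kinase, had between 0.693 and 102.8 CPM (median 33.3) in the 80-89 μm oocytes and between 2.34 and 97.6 CPM (median 39.6) in the 90-99 μm oocytes (log2 fold change 0.78, SE 0.29, unadjusted p = 0.016). COQ6, an enzyme of coenzyme Q synthesis, had between 16.5 and 139 CPM (median 70) in the 80-89 μm oocytes and between 29.7 and 248.5 CPM (median 93.5) in the 90-99 μm oocytes, with 14 of 21 above the median of the smaller (log2 fold change 0.69, SE 0.27, unadjusted p = 0.0203). CBS, which makes cystathionine from homocysteine, had medians of 19.6 and 34.1 CPM (log2 fold change 0.99, SE 0.40, unadjusted p = 0.0229). CCNQ, a cyclin, had medians of 374 and 496 CPM (log2 fold change 0.67, SE 0.27, unadjusted p = 0.0236). CINP, a protein that binds a cyclin-dependent kinase, had medians of 94.1 and 117 CPM (log2 fold change 0.68, SE 0.28, unadjusted p = 0.0273). CRELD2, a protein of the endoplasmic reticulum, had medians of 64.8 and 75.6 CPM (log2 fold change 0.63, SE 0.26, unadjusted p = 0.0241), and CLDN18, a tight-junction claudin, of 2.17 and 4.52 CPM (log2 fold change 1.31, SE 0.54, unadjusted p = 0.0258). The other 3 were carried by few oocytes. DNAI4, an axonemal dynein chain, had 64.4% of its counts at 90-99 μm in 1 oocyte, without which the ratio of summed levels was 1.32 in place of 3.36. C8H9orf152 had counts in 3 of 24 and 5 of 21 oocytes, with a ratio of 9.81 that was 3.73 without the larger oocyte with most counts, and CFP, the complement regulator properdin, had 2 counts against 23 (ratio 20.9, 95% counting interval 5.16 to 182.8), of which 87% were in 1 oocyte, without which its summed level was 0.112 CPM in place of 0.742 CPM and the ratio 3.16. In all of these genes the ranges of the groups overlapped and the adjusted p in the 16-sum fit was 1. With the 4 sums alone, which leave 1 residual degree of freedom, edgeR called TSPAN6, HPGD, PLAT, CBLN4 and CCNK lower.

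**Figure D2:**
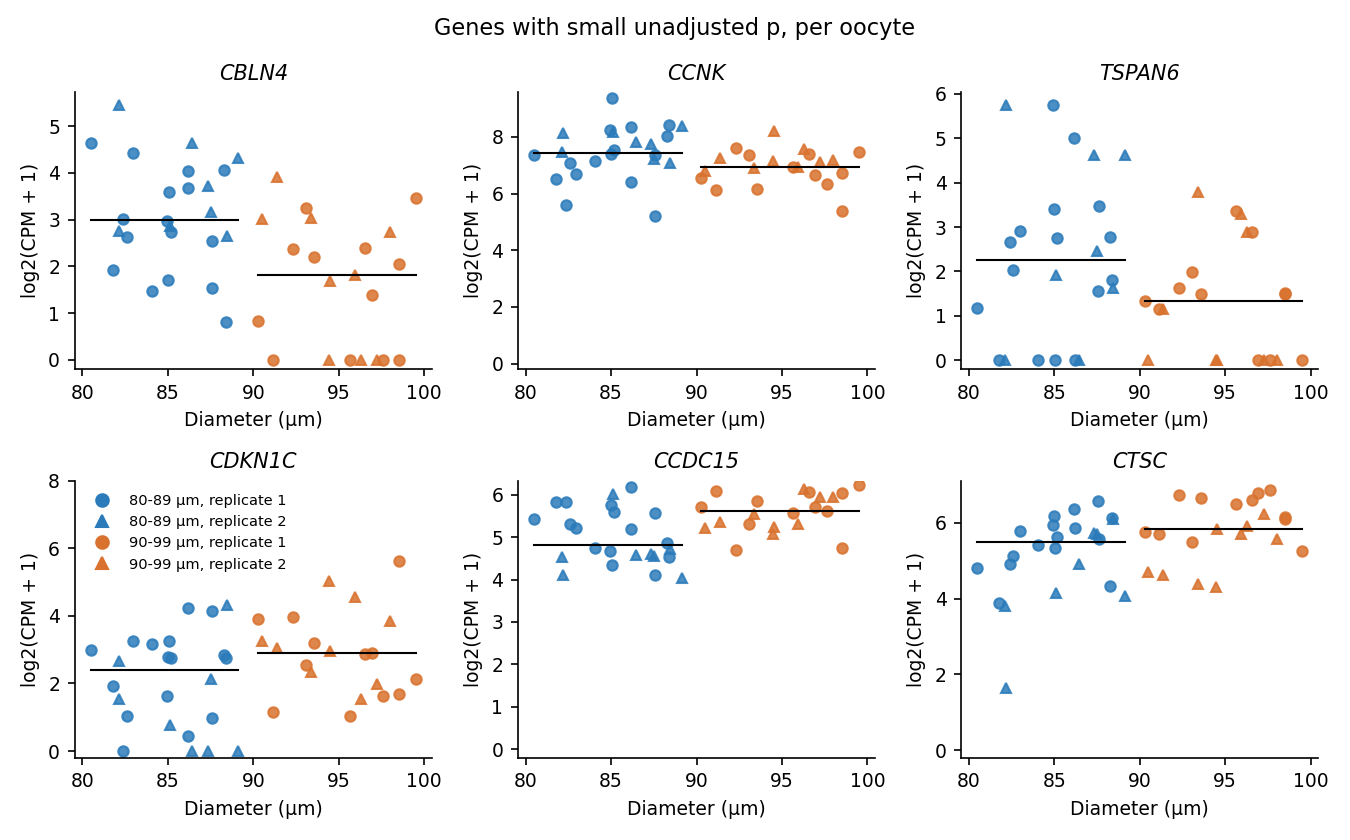
Level of CBLN4, CCNK, TSPAN6, CDKN1C, CCDC15 and CTSC in each of the 45 oocytes, as log2(CPM + 1), against oocyte diameter, with circles for replicate 1, triangles for replicate 2 and a line at the median of each group. The groups overlap in each panel, and the 7 larger oocytes with no CBLN4 count lie at 0.

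In the list of oocyte-expressed and maternal-effect genes used here, CBLN4 alone passed an unadjusted p under 0.05 in the 16-sum fit. Of 28 oocyte-expressed and maternal-effect genes listed, 8 could be paired with a gene ID and all 8 were tested, with 0 called, 1 lower and 0 higher at an unadjusted p under 0.05 (background 2.29% lower), and a median log2 fold change of 0.37 against -0.02 for all genes. At 250000 counts per oocyte this median was 0.17. In the fit of single oocytes 0 of 7 were called, and CBLN4 was lower (-1.69, SE 0.45) and CTSC higher (0.59, SE 0.23) at an unadjusted p under 0.05. With the 4 sums alone CBLN4 was called lower (edgeR adjusted p = 0.0287). BMP15, a ligand of the TGF-beta family that the oocyte sends to its granulosa cells, had between 522 and 3010.5 CPM (median 985) in the 80-89 μm oocytes and between 545 and 2278 CPM (median 1125) in the 90-99 μm oocytes, and its 95% interval ran from -0.48 to 1.21 on the log2 scale. BTG4, which recruits the deadenylase to maternal transcripts, had between 1405 and 6974 CPM (median 3265) in the 80-89 μm oocytes and between 2299 and 8652 CPM (median 3498) in the 90-99 μm oocytes (log2 fold change 0.38, SE 0.36, unadjusted p = 0.293). CPEB1 had between 528 and 2857 CPM (median 1411) in the 80-89 μm oocytes and between 625 and 2866 CPM (median 1403) in the 90-99 μm oocytes (log2 fold change 0.33, SE 0.33, unadjusted p = 0.326). BCAR4, which is expressed in bovine oocytes, had between 26.5 and 169 CPM (median 76.2) in the 80-89 μm oocytes and between 34.1 and 135 CPM (median 76.5) in the 90-99 μm oocytes, the smallest difference of the 8 (log2 fold change -0.06, 95% interval -0.60 to 0.48). AURKC, the meiotic Aurora kinase, had medians of 120.6 and 124 CPM (log2 fold change 0.46, SE 0.29, unadjusted p = 0.131), and ACTL8, an actin-like protein, of 5.4 and 2.22 CPM (log2 fold change 0.38, SE 0.64, unadjusted p = 0.558), where 1 oocyte held 40.6% of the counts at 90-99 μm, without which the ratio of summed levels was 0.584, and the medians were 8.04 and 2.65 CPM in replicate 1 and 0.117 and 1.6 CPM in replicate 2. CTSC, a lysosomal protease, had between 2.11 and 94.1 CPM (median 44.3) in the 80-89 μm oocytes and between 18.7 and 114.8 CPM (median 56) in the 90-99 μm oocytes, with 15 of 21 larger oocytes above the median of the smaller (log2 fold change 0.63, SE 0.35, unadjusted p = 0.0888). The remaining member is CBLN4, described above.

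Respiratory chain transcripts had 0 members called in the 16-sum fit, and 2 nuclear subunits, COX6C and COX7A2, were among the genes called lower with the 4 sums alone. The 4 transcripts of the mitochondrial genome that could be paired, of 13, all had negative fold changes, also with RLE normalization, with DESeq2 and at 250000 counts per oocyte, with 0 of 4 at an unadjusted p under 0.05 in the sums (median -0.45) and 2 of 4 with single oocytes as units (background 4.86% lower). Together they took between 0.324% and 3.36% of an oocyte's counts at 80-89 μm, with a median of 1.03%, and between 0.323% and 1.84% at 90-99 μm, with a median of 0.71%. Within replicate 1 the medians were 0.869% and 0.488%, and within replicate 2 they were 1.23% and 1.00%, and the ranges of the groups overlapped in both. ATP6, a subunit of ATP synthase, had between 375 and 2359.6 CPM (median 781) in the 80-89 μm oocytes and between 344 and 2327 CPM (median 624) in the 90-99 μm oocytes (log2 fold change -0.51, SE 0.44, unadjusted p = 0.261). ATP8 overlaps ATP6 on the mitochondrial genome, and how reads in the overlap were counted is not stated, so the pair cannot be separated. ATP8 gave a log2 fold change of -0.44 (SE 0.46). COX1 and COX2, catalytic subunits of cytochrome c oxidase, had medians of 3489 and 1203 CPM at 80-89 μm and of 2438 and 885 CPM at 90-99 μm, with log2 fold changes of -0.24 (SE 0.50) and -0.46 (SE 0.42). The summed share of the 4 also had a correlation of 0.32 with log10 of the total over the 45 oocytes after removing replicate means, and the part of depth was not tested.

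The nuclear subunits of the same complexes had fold changes in both directions. Of 11 nuclear cytochrome c oxidase subunits tested, 6 had negative and 5 positive fold changes (median -0.14), and the 1 member at an unadjusted p under 0.05 was COX7A2 (log2 fold change -0.74, SE 0.34, unadjusted p = 0.0429, background 2.29% lower). With single oocytes as units 0 were called and 3 of 10 were lower at that p (background 4.86%), namely COX8A (-0.59, SE 0.20), COX7A2 (-0.60, SE 0.22) and COX6C (-0.68, SE 0.25). With the 4 sums alone edgeR gave adjusted p-values of 0.00621 for COX6C and 0.04999 for COX7A2. COX6C had between 44.2 and 4396 CPM (median 532) in the 80-89 μm oocytes and between 189 and 2846 CPM (median 485) in the 90-99 μm oocytes (log2 fold change -0.76, SE 0.45, unadjusted p = 0.109), and COX7A2L, at the other end, had a log2 fold change of 0.55 (SE 0.29). Of 15 nuclear ATP synthase subunits, 8 were positive and 7 negative with 0 at p under 0.05 and 11 bounded within a 2-fold change (median 0.01), and they ran from -0.43 for ATP5F1E to 0.46 for ATP5MC1. In the fit of single oocytes 1 of the 15 was lower at that p (background 4.86%), ATP5MC2 (-0.53, SE 0.21).

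Among genes that govern stored transcripts, 1 of 9 CCR4-NOT subunits was lower at an unadjusted p under 0.05 (background 2.29%). This was CNOT6, a catalytic deadenylase subunit, which had between 1.92 and 139 CPM (median 21.7) in the 80-89 μm oocytes and between 0 and 94.5 CPM (median 22.9) in the 90-99 μm oocytes (log2 fold change -0.78, SE 0.34, unadjusted p = 0.0328). Its medians were 19 and 8.49 CPM in replicate 1 and 64.9 and 41.1 CPM in replicate 2, lower at 90-99 μm in both, and the medians over both replicates mix these levels. CNOT6 with single oocytes as units did not pass that p (-0.52, SE 0.29), and the 1 of 9 that did was CNOT9 (-0.47, SE 0.16, background 4.86% lower), with 0 called. The list had a median of -0.04, which turned to 0.08 at 250000 counts per oocyte, and its highest member was CNOT10 at 0.46. Of 14 mRNA-storage and polyadenylation factors, 1 was higher at that p (background 1.06%), CPSF3, the endonuclease that cleaves pre-mRNA before polyadenylation, which had between 19.7 and 202.7 CPM (median 80.5) in the 80-89 μm oocytes and between 23.9 and 241 CPM (median 113.98) in the 90-99 μm oocytes (log2 fold change 0.67, SE 0.28, unadjusted p = 0.0278). Its list had a median of 0.09 and a lowest member in CPEB2 at -0.86 (SE 0.50).

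In 3 lists of the machinery of chromosome segregation 29 of 39 fold changes were positive, against 48.2% of all genes, which were not matched for abundance. In the sums 0 members passed an unadjusted p under 0.05. With single oocytes as units AURKA was higher and CENPS lower at that p (backgrounds 3.03% and 4.86%), and 0 were called. Of 9 spindle checkpoint and chromosomal passenger genes, 7 were positive and 2 negative (median 0.33, and 0.15 with 6 positive at 250000 counts per oocyte). In both replicates 7 of these 9 were positive (background 25.8%). The same held for 8 of 18 centromere and kinetochore proteins and 2 of 12 anaphase promoting complex subunits. AURKA, a kinase of spindle poles, had between 899 and 6362 CPM (median 3468) in the 80-89 μm oocytes and between 998 and 7822 CPM (median 3989) in the 90-99 μm oocytes (log2 fold change 0.45, SE 0.30, unadjusted p = 0.149). BUB1, a checkpoint kinase, was at the lower end (log2 fold change -0.15, SE 0.29, unadjusted p = 0.607), and CDC20, an activator of the anaphase promoting complex, at the upper (log2 fold change 0.50, SE 0.30, unadjusted p = 0.115). Of 18 centromere and kinetochore proteins 14 were positive (median 0.19), up to 0.80 for CENPX (SE 0.40). The lowest, CENPB, had 13 counts against 1, a ratio of 7.16 with a 95% counting interval of 1.07 to 304.1. Of 12 anaphase promoting complex subunits, 11 were bounded within a 2-fold change (median 0.05), from -0.24 for ANAPC7 to 0.29 for ANAPC1. Of 22 cyclins, CDKs, their inhibitors and CDC25 phosphatases, 11 were positive and 11 negative (median 0.03), and CDKN1C was the 1 member past p under 0.05 (background 1.06% higher).

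The other lists held 1 more gene at an unadjusted p under 0.05 in the sums. In the fit of single oocytes, 3 of 27 COPI coat and adaptor subunits and 1 of 14 actin and ARP2/3 genes were lower at that p (background 4.86%), 1 of 28 chromatin genes was higher (background 3.03%) and 1 lower, and 0 were called. Of 32 gene IDs of chromatin readers and remodelers tested, 17 were positive and 15 negative (median 0.02) and the 1 at that p, near the background share of 2.29% lower, was CBX2, a Polycomb protein (log2 fold change -1.57, SE 0.74, unadjusted p = 0.0454). The lowest member, CHD3, had 25 counts against 3, a ratio of 4.59 with a 95% counting interval of 1.40 to 23.7 (2.41, 0.651 to 13.3, without the oocyte with most counts), and the highest was ARID5B at 0.49. The 7 CCT chaperonin subunits, which fold actin and tubulin, were all bounded within a 2-fold change (median 0.08), from CCT2 at -0.13 to CCT5 at 0.30. Of 14 actin and ARP2/3 genes 12 were bounded in this way (median 0.10), from CFL1 at -0.36 to ARPC1B at 0.54, and of 27 COPI coat and adaptor subunits 19 were (median 0.01), from AP1G1 at -0.60 to ARF4 at 0.35. The 9 cadherin-catenin genes had a median of 0.13, from CTNNBIP1 at -0.39 to CDH1, E-cadherin, at 0.58 (SE 0.29). The 10 calmodulins and calmodulin-dependent kinases had a median of 0.06. The 11 BMP and activin signalling genes had a median of 0.05, from ACVRL1 at -0.88 to BMP4 at 0.38, and the 15 BCL2 family members and caspases a median of -0.01. The 3 granulosa and theca markers tested had a median of -0.78, with FSHR at 29 counts over the smaller and 4 over the larger oocytes and GATA4 at 10 and 7. HSD17B1, an enzyme of estradiol synthesis and the most abundant of the 3, had 172 and 51 counts, in 20 of 24 and 11 of 21 oocytes. Its log2 fold change was -0.78 (SE 0.65, edgeR unadjusted p = 0.241), with log2 ratios of -1.01 in replicate 1 and -0.34 in replicate 2. A single oocyte held 56.9% of its counts at 90-99 μm, without which the ratio of larger to smaller was 0.269. For GATA4 a single oocyte held 50% of the counts at 80-89 μm and 57.1% at 90-99 μm. The part of granulosa and theca cells in the other differences was not tested. The 3 markers of stroma, vessels and blood tested had a median of -0.11, from COL1A2 at -0.44 to ACTA2 at 0.17.

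**Figure D3:**
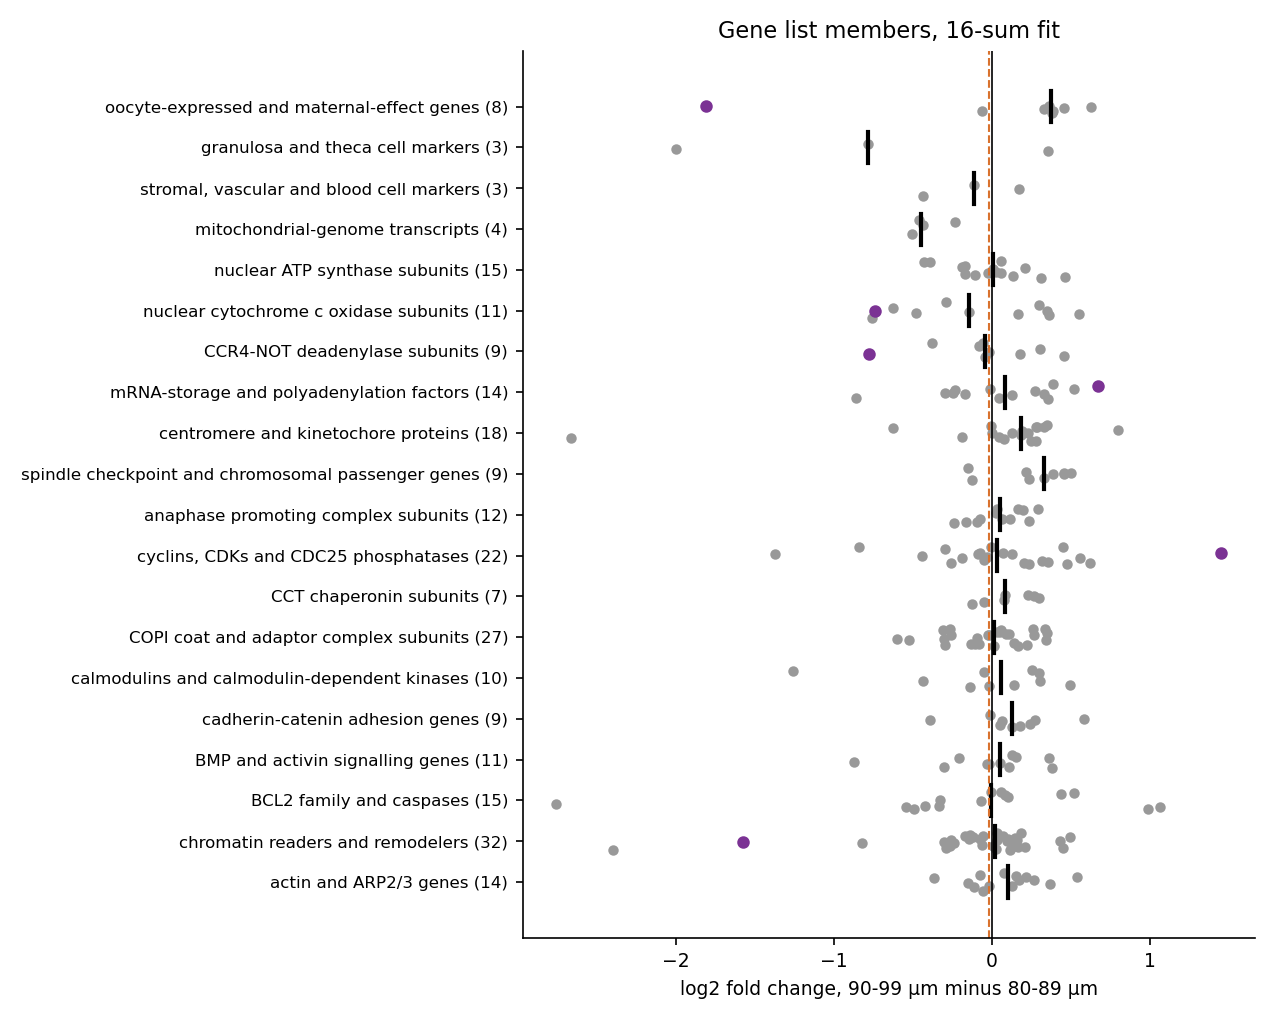
Fold change (log2, 90-99 μm minus 80-89 μm) of each tested member of the 20 gene lists, with the number of members in brackets, a black bar at the median of the list and a dashed line at the median of all 14087 genes. Members at an unadjusted p under 0.05 are purple, and these are CBLN4, COX7A2, CNOT6, CPSF3, CDKN1C and CBX2.

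The 10 genes with a symbol and the most counts per oocyte, not corrected for transcript length, held ranks between 6 and 46 among all genes by mean thinned count. ACCSL, related to aminocyclopropane carboxylate synthase, had between 639.8 and 7387 CPM (median 3104) in the 80-89 μm oocytes and between 933 and 6225 CPM (median 3728) in the 90-99 μm oocytes (log2 fold change 0.15, SE 0.42, unadjusted p = 0.725). AKR1B1, aldose reductase, had between 223 and 3432 CPM (median 1519) in the 80-89 μm oocytes and between 173 and 7541 CPM (median 1793) in the 90-99 μm oocytes, with a log2 fold change of 0.65 (SE 0.31, edgeR unadjusted p = 0.0495) and log2 ratios of 0.68 in replicate 1 and 0.62 in replicate 2. CALM2, a calmodulin gene, gave -0.02 (95% interval -0.92 to 0.88), and CCT8, a chaperonin subunit, gave 0.08 (-0.69 to 0.85). The remaining 6 were AURKA, BTG4, CPEB1, COX1, COX2 and ATP8, and 0 of the 10 were called, with 1 of them, AKR1B1, at an unadjusted p under 0.05 (background 1.06% higher).

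With the diameter in place of the group, single oocytes as units and the replicate as a term, edgeR called 5 of 9035 genes (0.0553%), 3 increasing and 2 decreasing with diameter, none of which carries a symbol in the tables used. This fit was added after the data had been seen. ENSBTAG00000003561 had between 9.01 and 106 CPM (median 33.2) in the 80-89 μm oocytes and between 7.47 and 155 CPM (median 61.9) in the 90-99 μm oocytes, and 17 of 21 larger oocytes lay above the median of the smaller (log2 change 1.01 per 10 μm, SE 0.20, Benjamini-Hochberg adjusted p = 0.04). ENSBTAG00000019949 had between 74.8 and 546 CPM (median 149.7) in the 80-89 μm oocytes and between 105 and 461.3 CPM (median 250.5) in the 90-99 μm oocytes (0.68 per 10 μm, edgeR adjusted p = 0.04), and ENSBTAG00000007584 had medians of 566 and 870.1 CPM (0.84 per 10 μm, edgeR adjusted p = 0.0471). In the other direction, ENSBTAG00000043568 had between 43.3 and 3544 CPM (median 259.3) in the 80-89 μm oocytes and between 25.9 and 2848 CPM (median 139) in the 90-99 μm oocytes (-1.66 per 10 μm, edgeR adjusted p = 0.04), and ENSBTAG00000008307 had medians of 43.3 and 28.6 CPM (-0.85 per 10 μm, edgeR adjusted p = 0.0471). Without the 2 oocytes that stood apart, 0 genes were called with the diameter (edgeR, 3.13% of genes higher and 5.4% lower at an unadjusted p under 0.05), and the 5 genes had adjusted p-values from 0.0601 to 0.221. Their fold changes per 10 μm without those oocytes were 0.99 for ENSBTAG00000003561, 0.65 for ENSBTAG00000019949, 0.70 for ENSBTAG00000007584, -1.71 for ENSBTAG00000043568 and -0.83 for ENSBTAG00000008307. The nearest genes with a symbol were CBLN4 (-1.67 per 10 μm, edgeR adjusted p = 0.114) and CTSC (0.84 per 10 μm, edgeR adjusted p = 0.119). In replicate 1 alone, edgeR with single oocytes called ENSBTAG00000003561 higher and ENSBTAG00000043568 and ENSBTAG00000008525 lower (0.0362% of 8277 genes), and in replicate 2 alone it called 0, with 173 genes higher (2.08%) and 141 lower (1.69%) at an unadjusted p under 0.05. ENSBTAG00000008525 had medians of 38.2 CPM at 80-89 μm and 14.6 CPM at 90-99 μm, with 19 of 21 larger oocytes below the former.

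Of 4 measures per oocyte, 0 differed between the groups at an adjusted p under 0.05, and those on genes, shares and correlations were taken after thinning each oocyte without replacement to 250000 counts. The total count differed by -0.22 on the log10 scale (permutation within replicate, two-sided p = 0.0255, Benjamini-Hochberg adjusted p = 0.051), with -0.32 in replicate 1 (p = 0.0195) and -0.05 in replicate 2 (p = 0.696, permutation). Leaving out the 2 oocytes that stood apart gave a difference in total of -0.235 (permutation p = 0.018, unadjusted). At equal depth an oocyte of 80-89 μm had between 8230 and 10697 genes with a count (mean 9894 ± 682, SD, n = 24) and an oocyte of 90-99 μm between 8322 and 10302 (mean 9467 ± 532, SD, n = 21). The difference within replicates was -358 genes (permutation p = 0.0243, adjusted p = 0.051), with -458 in replicate 1 (p = 0.00855) and -195 in replicate 2 (p = 0.531, permutation). Without the 2 oocytes that stood apart it was -261 (permutation p = 0.0836). The number of genes still moved with the original total after thinning, at a correlation of 0.39 over the 45 oocytes with replicate means removed, 0.71 in replicate 1 and -0.13 in replicate 2. With a line on log10 of the total removed within replicate, an alternative chosen after the data had been seen, the difference was -181 genes (permutation p = 0.194).

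The 100 genes with most counts in an oocyte took between 17.8% and 26.9% of its counts at 80-89 μm (mean 21.0 ± 2.17, SD, n = 24) and between 17.7% and 33.3% at 90-99 μm (mean 22.2 ± 2.99, SD, n = 21). The difference was 1.42 percentage points (permutation p = 0.0518, adjusted p = 0.069), and 0.737 without the oocytes that stood apart (permutation p = 0.2), of which that of 98.51 μm had the 33.3%. The median correlation of an oocyte with the other 80-99 μm oocytes of its replicate was 0.803 ± 0.0493 (SD, n = 24) at 80-89 μm and 0.825 ± 0.0438 (SD, n = 21) at 90-99 μm, a difference of 0.023 (permutation p = 0.112, adjusted p = 0.112). This measure was not computed without the 2 oocytes that stood apart, since it was the one that singled them out. On all 4 measures the ranges of the groups overlapped in both replicates.

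**Figure D4:**
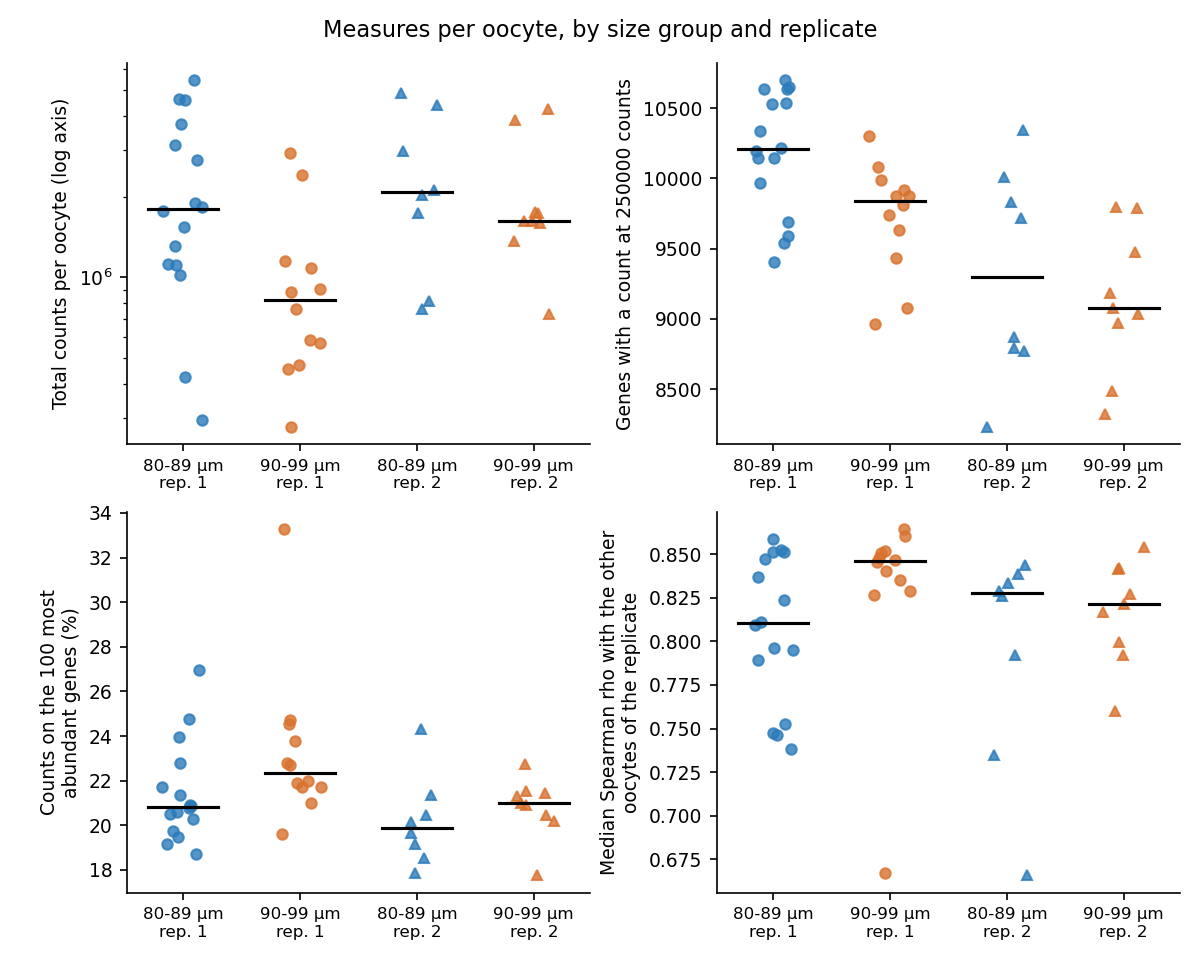
Total counts (log axis), genes with a count at 250000 counts, percent of counts on the 100 genes with most counts, and median Spearman correlation with the other oocytes of the replicate, for each oocyte by size group and replicate, with a bar at the median. The larger oocytes have lower median totals and fewer genes at the median in both replicates, by less in replicate 2, and the ranges of the groups overlap in both.

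Most genes detected in one group were detected in the other. With expressed taken as a count in at least 50% of oocytes at 250000 counts each, 9824 genes were expressed at 80-89 μm and 9526 at 90-99 μm, and 9343 of them were shared. A count was found in all 45 oocytes for 4330 genes. The share of oocytes with a count differed by at least 50 percentage points for 2 genes, both with more at 80-89 μm, and neither carries a symbol, so that they are named here after their values were seen. ENSBTAG00000003196 had counts in 15 of 16 and 7 of 8 smaller oocytes and in 4 of 12 and 3 of 9 larger oocytes of replicates 1 and 2. ENSBTAG00000007415 had counts in 14 of 16 and 6 of 8, and in 7 of 12 and 0 of 9.

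Within a size group, the spread of most genes between oocytes was beyond counting noise. The spread of a gene was taken as the coefficient of variation (CV) of its thinned counts within group and replicate, less the part that counting alone gives, for 4832 genes with a mean of at least 5 thinned counts in each group and replicate. The spread was at or below counting noise for 8 of these genes at 80-89 μm and 28 at 90-99 μm. Its median was 0.402 at 80-89 μm and 0.369 at 90-99 μm, and 90% of genes lay between 0.232 and 0.624 over both groups. The spread was larger at 90-99 μm for 40.5% of genes, for 34.1% in replicate 1 and 49.2% in replicate 2, and for 33.4% without the oocytes that stood apart. There were no technical replicates of 1 oocyte, so the spread between cells and the spread from capture and amplification cannot be told apart. Pairs of oocytes of 80-89 μm had a median Spearman correlation of 0.795 in replicate 1 and 0.775 in replicate 2, pairs of 90-99 μm 0.853 and 0.817, and mixed pairs 0.813 and 0.808, over 6396 genes. Pairs across replicates had medians of 0.579 and 0.546 within the groups. Over the 8 size groups and 4166 genes, the median CV ran from 0.294 at 100-109 μm to 0.421 at 110-119 μm, and 80-89 μm (0.392) and 90-99 μm (0.362) lay inside this range. No test was made of these spreads.

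The genes with least spread, among those with a symbol and a mean of at least 50 thinned counts, were ACACA, ATP5F1C, CCT2, ARPC2, CDK7, CDC123, ARMC10 and CCDC50, and 80.3% of the symbols used begin with A, B or C. ACACA, the enzyme that commits acetyl-CoA to fatty acid synthesis, had a CV of 0.137 at 80-89 μm and 0.195 at 90-99 μm, and its thinned counts ran from 89 to 315. ATP5F1C, a subunit of ATP synthase, had CVs of 0.183 and 0.161 and counts from 71 to 196. CCT2 of the chaperonin had CVs of 0.16 and 0.197, ARPC2 of the ARP2/3 complex 0.16 and 0.209, and CDK7, which activates other cyclin-dependent kinases, 0.181 and 0.177. CDC123, a translation initiation assembly factor, had 0.172 and 0.189, ARMC10 0.178 and 0.193, and CCDC50 0.167 and 0.206.

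Most of the genes with most spread were correlated with each other from oocyte to oocyte. The correlations of the 8 with diameter, after removing replicate means, ran from -0.21 for COX1 to 0.36 for CCNQ by CPM. Without the 2 oocytes that stood apart they ran from -0.21 to 0.26 by thinned counts. The 2 ranges thus differ in measure as well as in oocytes. CDC20 had between 1 and 119 thinned counts at 80-89 μm (median 66) and between 2 and 135 at 90-99 μm (median 56), with a CV of 0.653 and 0.673. These rest on replicate 2, with CVs of 1.09 and 0.999, while in replicate 1 they were 0.274 and 0.239, below the median gene there (0.369 and 0.308). In replicate 1 its medians were 77 and 81.5, and in replicate 2 they were 13.5 and 10, so that its medians differed more between replicates than between size groups. CDK5, a cyclin-dependent kinase, had medians of 85.5 and 99 in replicate 1 and of 24 and 23 in replicate 2, and a CV of 0.644 over both groups, with 0.36 and 0.546 in replicate 1 and 1.04 and 0.719 in replicate 2. CCNP and CCNQ, both cyclins, had CVs of 0.798 and 0.708, and of 0.686 and 0.671. Those of CCNQ were 0.476 and 0.511 in replicate 1 and 0.997 and 0.842 in replicate 2. BUD23, a methyltransferase of ribosomal RNA, had CVs of 0.6 and 0.322 in replicate 1 and 1.05 and 0.713 in replicate 2, so the spread of these genes was also larger in replicate 2. After removing replicate means, the 10 pairs among CDC20, CDK5, CCNP, CCNQ and BUD23 had correlations between 0.69 and 0.85 over the 45 oocytes, which share the libraries these counts come from, and between 0.66 and 0.84 without the 2 oocytes that stood apart. CDKN1B, an inhibitor of cyclin-dependent kinases, went with replicate the other way, with ranges of 1 to 42 and 2 to 30 thinned counts in replicate 1 and of 56 to 578 and 21 to 627 in replicate 2, and correlated at 0.66 with C23H6orf62, which had at most 155 in replicate 1 and ranged from 149 to 589 and 180 to 678 in replicate 2. COX1 had a CV of 0.695 and 0.734 and correlations between -0.30 and -0.52 with those 5 genes.

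**Figure D5:**
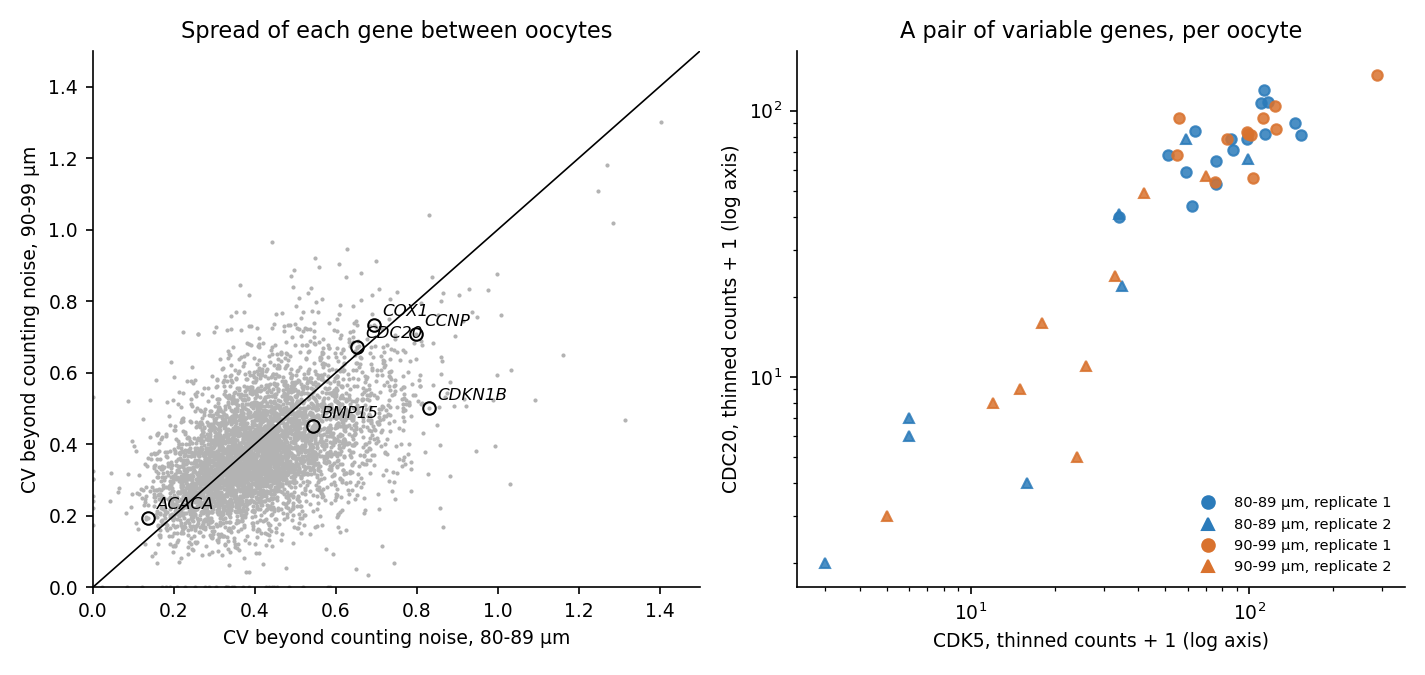
Left, CV beyond counting noise of 4832 genes at 90-99 μm against 80-89 μm with the line of equality, where more genes fall below the line than above it. Right, thinned counts plus 1 of CDC20 against CDK5 in the 45 oocytes on log axes, where replicate 2 oocytes (triangles) span the low end and both size groups lie along the same band.

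The first principal component of the 45 oocytes, after removing replicate means, took 24.1% of the variance and had a correlation of 0.08 with diameter, 0.16 in replicate 1 and -0.02 in replicate 2. Its correlation with the mitochondrial-genome share was -0.63 in replicate 1 and -0.59 in replicate 2, and that with the number of genes at equal depth was 0.15 and 0.93. Without the 2 oocytes that stood apart, which had the highest scores on it, the component took 21.3% of the variance, with correlations of 0.02 with diameter, -0.59 and -0.60 with the mitochondrial-genome share and 0.48 and 0.92 with the number of genes. Of 240 genes with a symbol and a mean of at least 50 thinned counts, 127 had a correlation above 0.5 in size with this component (109 without those 2 oocytes), which was computed from the same counts. At its positive end stood C15H11orf16 (0.86), CCNP (0.86), CDK5 (0.86), CENPV (0.85), BIN3 (0.84) and CTSZ (0.84), and at its negative end CEBPZ (-0.86), CSPP1 (-0.84), ATRX (-0.83), ARID4A (-0.82), CCDC88A (-0.81) and ARHGAP5 (-0.79). These 12 were chosen after their values were seen.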

How the data were processed

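Polyadenylated RNA of single oocytes was captured and amplified by Smart-seq2. The authors trimmed reads with Trim Galore (version 0.6.6), aligned them with HISAT2 to the bovine genome and counted them per gene in SeqMonk. What was deposited is the raw counts of every oocyte. How strand, overlapping genes and reads with several alignments were treated is not given in the sources used here. Counts of IDs on more than 1 line (3622 of 23161 lines) were summed, and whether such lines share reads is not given. Symbols were read for 3608 of 21218 gene IDs from shortened tables, and 80.3% of them begin with A, B or C, so genes named by rank are not a sample of all genes. No coordinates were used.

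The 45 oocytes, the gene lists and the tests were chosen with earlier results of these data known. Counts of the 165 retained oocytes were summed per size group and replicate (16 sums). edgeR 4.0.16 (filterByExpr, count minimum 10 and total minimum 15, TMM, robust quasi-likelihood test, replicate as block, Benjamini-Hochberg over all genes, threshold 0.05) gave the main contrast. The standard error was the log2 fold change divided by the square root of F, which gave none for 6 genes. Log2 ratios within a replicate used CPM of the sums plus 0.5. Sums of a replicate share a library batch and deviated together, with correlations between 0.398 and 0.694 over 28 pairs of groups and 0.682 for these 2 groups, so the replicate pairs them. CPM of single oocytes used TMM effective library sizes. For measures per oocyte, counts were thinned to 250000 and group labels permuted 100000 times within replicate, two-sided. Intervals for counts are exact and cover counting error only. The fits and measures were tested on simulated data.

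Named genes carry a symbol and are the 12 with the smallest p in each direction among those of the same direction in both replicates, the paired oocyte-expressed genes, those called by an alternative with at most 5 calls (IDs allowed), the 10 with most counts, the 8 most and 8 least variable, those whose detection differs by at least 50 points, and the ends of each of the 20 lists. Some members named by this rule are not reported here. Alternatives were no block, RLE, DESeq2 1.42.0, no filter, single oocytes with raw or ComBat-seq counts (sva 3.50.0), thinned sums, 4 sums, all 179 deposited oocytes, and each sum left out. Those added after seeing the data were the diameter as a term, each replicate alone, the removal of the 2 oocytes that stood apart or, for a gene, of the oocyte with most of its counts, a second thinning and the removal of depth. Software comprised R 4.3.3 with limma 3.58.1, and Python 3.11.15 with the packages numpy 2.4.6, scipy 1.17.1, pandas 2.3.3 and, for plots, matplotlib 3.10.9. The 2 deposited 80-89 μm oocytes that the study's list leaves out had 63163 and 15866 counts.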

Additional observations from a re-analysis of the deposited data

Results flagged for a closer look

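Among the 8 oocytes of 80-89 μm in replicate 2, an oocyte of 85.1 μm had 3.3576% of its thinned counts on the 4 paired mitochondrial-genome transcripts, which set it apart from the other 7 by the gap to its nearest neighbour (Dixon's test), while the next highest oocyte had 1.97%. It also had the fewest genes at equal depth of the 45 oocytes, 8230. Of 10 such sets of values examined, chance flags about 1 in 20. Its part in the group difference of this share was not tested.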

How the results depend on the processing

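In the 16-sum fit 0 genes were called, and this stood without the replicate block, with RLE, without a filter, with DESeq2, with single oocytes, ComBat-seq counts, thinned sums, all deposited oocytes, each sum left out (0 to 0 called) and without the oocytes that stood apart. It moved to 55 with the 4 sums alone, 5 with the diameter as a term and 3 in replicate 1 alone. The 3.34% of genes at an unadjusted p under 0.05 became 0.937% without the replicate block, 7.89% with single oocytes (8.59% without the oocytes that stood apart), 7.59% with ComBat-seq counts, 9.07% with the 4 sums, 9.37% with the diameter (8.53% without those oocytes), 8.66% in replicate 1 alone, and 1.47% to 4.82% with a sum left out. The 35.5% of genes bounded within a 2-fold change became 3.20% without the block, 85.2% with single oocytes (84.6% without those oocytes), 85.0% with ComBat-seq counts, 53.4% with the 4 sums, 89.3% with the diameter (88.5% without those oocytes), 85.1% in replicate 1 alone and 12.1% to 13.3% with a sum left out. The cause of these moves was not tested. In simulated data the sums recovered 11 of 200 genes changed 2-fold and 119 changed 4-fold, and the parts of depth and of the number of replicates in this were not tested.

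The difference in total counts lost its unadjusted p under 0.05 in replicate 2 alone (-0.0513, permutation p = 0.696) and with all deposited oocytes (-0.101, p = 0.476, permutation). The difference in genes at equal depth lost it in replicate 2 alone (-195), without the oocytes that stood apart (-261) and with depth removed (-181). The share on the 100 genes with most counts passed it at 100000 counts (1.43, permutation p = 0.0485) and not thinned (1.45, permutation p = 0.0461). Not thinned, 907 genes were expressed at 80-89 μm alone, 42 at 90-99 μm alone and 17 differed in detection by 50 points, and at 100000 counts 301 were expressed at 90-99 μm alone. Of 1600 values of 95 named genes under the alternatives, 1512 kept their direction and side of the threshold, 69 changed sign with no call on either side, and 19 passed the threshold. The replicate block changed no call.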
